A study of Mus musculus with 17 samples.

Results

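Hepatocytes lacking Yap and Taz were compared between mice given repeated carbon tetrachloride (CCl4), a solvent toxic to the liver, and untreated mice, over all genes with enough counts. The comparison rests on 7 of the 17 samples of the series, 3 knockout CCl4 and 4 knockout untreated, taken by genotype and treatment from the labels. All samples are labelled as FACS-sorted hepatocytes of males aged 2 to 3 months. The genotype is given as Yap/Taz KO, Taz being the protein of the gene Wwtr1, and the driver of the deletion is not given in the sources used here. CCl4 was dosed at 1 ug/g, 7 times at intervals of 3 days, and cells were taken 3 days after the last dose. The 5 wild type untreated and 5 wild type CCl4 samples, of the same sex and age and the same CCl4 course, enter the fit and serve to test whether an effect differed between genotypes.

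YAP and TAZ are transcriptional coactivators that the Hippo kinases keep out of the nucleus, and that drive growth genes with the TEAD factors. Hepatocytes around the central vein convert CCl4 to radicals through cytochrome P450, above all CYP2E1, and die, after which surviving hepatocytes re-enter the cell cycle. Liver hepatocytes also differ by sex: pulses of growth hormone acting through STAT5B keep a set of genes high in males and another low.

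Levels are counts per 1000000 (CPM) of TMM-scaled library sizes, and log2 fold changes with their standard errors and adjusted p values come from edgeR's quasi-likelihood test over 13721 genes, adjusted by Benjamini-Hochberg. The threshold for a call was an adjusted p of 0.05. The labels name separate samples without tying each to an animal, so p values measure only the spread between these samples, which may be technical. The 7 libraries held 12649010 to 21543974 counts. The sort label was met by the markers of hepatocytes: Alb, the most abundant plasma protein gene, had 57256 to 96781 CPM untreated and 77490 to 101425 after CCl4, and the 10 hepatocyte markers summed to 82620 to 130678 and 95606 to 124867 CPM, sums that Alb dominates. Of the 10, 4 were called lower and none higher, with a median of -0.49 log2, among them Cps1 of the urea cycle (-0.78, adjusted p = 0.0334), Fah of tyrosine breakdown (-0.69, adjusted p = 0.0238) and the apolipoprotein Apoa1 (-0.66, adjusted p = 0.0357). None of the 10 was called without CCl4 replicate 3 or with library totals alone in place of TMM scaling.

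Knockout CCl4 replicate 3 stood apart from the other 2. Mitochondrially encoded genes held 34.3% of its counts, against 7.49% and 4.25% in replicates 1 and 2 and 5.69 to 8.87% in the 4 untreated libraries. Its mean correlation with the other 2 libraries of its group was 0.864, against 0.903 and 0.902 for theirs. With the 4 untreated libraries the mean correlations of replicates 1, 2 and 3 were 0.904, 0.854 and 0.751. Replicate 1 thus correlated about as closely with the untreated group as with its own. Markers of Kupffer cells, the resident macrophages of the liver, summed to 3543 CPM in replicate 3, to 67.4 and 199 CPM in replicates 1 and 2 and to 0.171 to 6.70 CPM untreated. In bulk RNA more cells of a type and more RNA per cell cannot be told apart. The share of these cells' RNA in the results below was not tested. Replicate values are given in the order 1, 2, 3, and values "without replicate 3" come from the same fit on the same genes less that library.

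**Figure D1:**
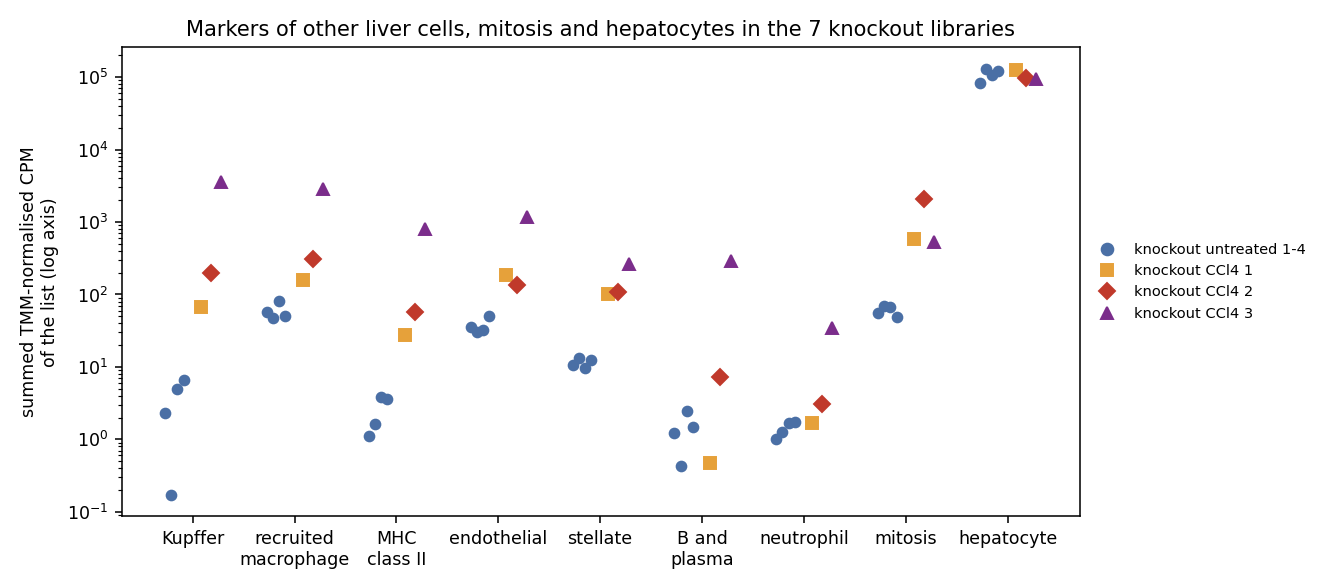
Summed CPM of each marker list (log axis) in the 4 untreated (blue circles) and 3 CCl4 (orange, red and purple) knockout libraries. Replicate 3 is highest for the 6 lists of non-hepatocyte cells and for MHC class II, replicate 2 is highest for mitosis, and the hepatocyte sums lie at a like height in all 7.

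Of the 2 targeted genes Yap1 was low in both arms. Together they summed to 3.57 to 10.6 CPM untreated and 3.25 to 9.06 CPM after CCl4. In the wild type untreated libraries the sums were 49.5 to 83.4 CPM, and Yap1 was the larger part of these. Wwtr1 was not set against its own wild type level here. Yap1 had 2.20, 2.57, 1.21 and 8.04 CPM in the untreated and 1.61, 0.536 and 1.97 CPM in the CCl4 libraries, against 37.4 to 73.6 CPM over the 5 wild type untreated libraries. Its CCl4 log2 fold change of -1.38 ± 0.53 was not called (adjusted p = 0.0855). Wwtr1 had 1.41, 1.20, 2.36 and 2.51 CPM untreated and 4.48, 2.72 and 7.09 CPM after CCl4, without overlap. It was called higher at 1.33 ± 0.33 log2 (adjusted p = 0.00918), a call not met without replicate 3 (0.94, adjusted p = 0.0744).

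Of the 13721 genes tested 1655 were called higher after CCl4 (12.1%) and 955 lower (6.96%), 2610 in either direction (19.0%), and 4151 had an unadjusted p under 0.05. Without replicate 3, 1070 were higher (7.80%) and 621 lower (4.53%), and of these 986 and 532 were among the calls of the 3 replicates. With library totals alone in place of TMM 1810 were higher and 356 lower (83.6% higher, against 63.4%), and the median of all genes shifted from 0.01 to 0.20 log2. The 3 CCl4 libraries lay wholly above or below the 4 untreated ones for 3464 genes (25.2%). Whichever CCl4 replicate was left out, 1219 genes kept their call (8.88%), 806 higher and 413 lower. Every list count below is to be read beside the shares of all genes, 12.1% higher and 6.96% lower. Without replicate 3 these shares were 7.80% and 4.53%.

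Each CCl4 library was also set alone against the 4 untreated ones, with its spread assumed to be that of the other groups. Replicate 1 gave 133 genes higher (0.905%) and 29 lower (0.197%). Replicate 2 gave 1026 higher (6.72%) and 578 lower (3.78%), and replicate 3 gave 2388 higher (15.6%) and 1290 lower (8.42%). Replicate 3 was the highest library for 1099 of the 1655 genes called higher (66.4%), and at least 4-fold above the other 2 for 534 of them (32.3%). Replicate 2 was the highest for 507 genes (30.6%) and replicate 1 for 49 (2.96%). Among the 955 genes called lower, the lowest library was replicate 3 for 461 (48.3%), replicate 2 for 432 (45.2%) and replicate 1 for 45 (4.71%).

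**Figure D2:**
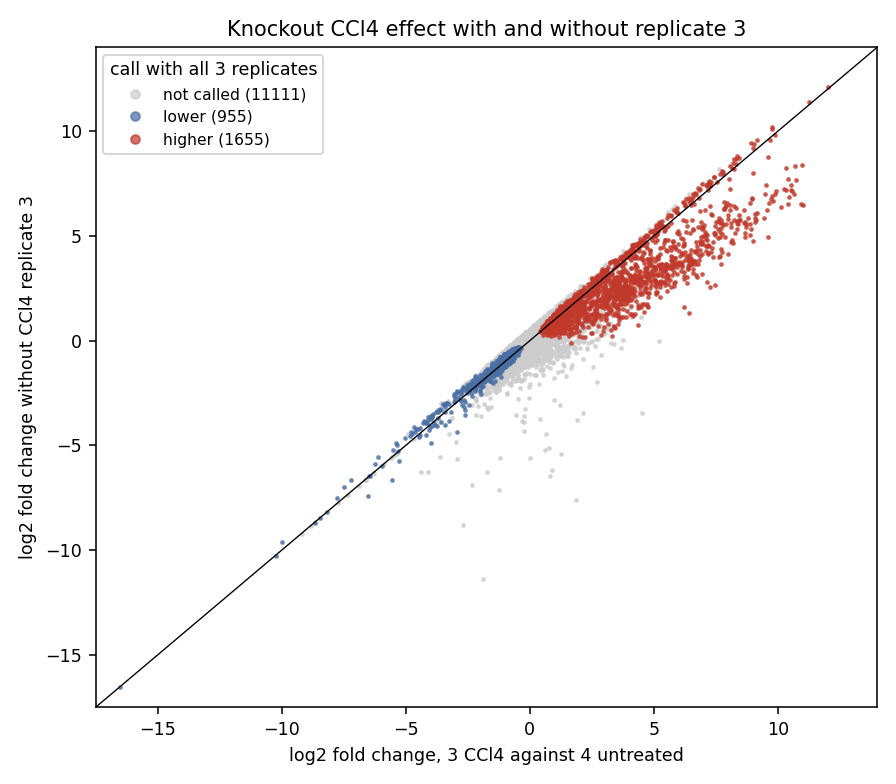
Log2 fold change of each of the 13721 tested genes with all 3 CCl4 libraries (x axis) and without replicate 3 (y axis), coloured by the call with all 3; the line marks equal values. Genes lower after CCl4 (blue) lie along the line, while a band of the genes called higher (red) lies well below it, with smaller values once replicate 3 is left out.

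Mitosis genes were higher in all 3 CCl4 libraries. Of 50 genes of mitosis and cytokinesis, all tested, 47 were called higher and 1 lower, against the 12.1% and 6.96% of all genes, and 46 and 1 without replicate 3. The list's median log2 difference from untreated was 4.32, 6.15 and 4.32 in replicates 1, 2 and 3, where the median of all genes was 0.02, 0.01 and 0.02. Summed over the list, levels were 56.2, 68.5, 66.4 and 49.5 CPM untreated and 576, 2050 and 527 CPM after CCl4. Replicate 2 was the highest and replicates 1 and 3 lay close together. For macrophage markers replicate 3 was by far the highest and replicate 1 the lowest. Which cells carried the mitosis RNA was not tested. Without replicate 2, 41 of the 50 were called higher. Alone against the untreated group, replicates 1, 2 and 3 called 3, 45 and 35 mitosis genes higher.

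The promoters of 4 of these genes are shown because the list moved as a block and holds 2 sequence elements known from genes of G2 and mitosis: the cell cycle genes homology region (CHR, TTTGAA) and the CCAAT box (CCAAT). Each line gives the 250 bases before the start site, 5′ to 3′ on the gene's strand, from RefSeq (GRCm38.p6); capitals mark matches to either motif on either strand. Ccnb2 lies at chr9:70421555-70421804 (minus strand), Cdk1 at chr10:69352913-69353162 (minus), Plk1 at chr7:122159185-122159434 (plus) and Cdc20 at chr4:118437344-118437593 (minus).
Ccnb2: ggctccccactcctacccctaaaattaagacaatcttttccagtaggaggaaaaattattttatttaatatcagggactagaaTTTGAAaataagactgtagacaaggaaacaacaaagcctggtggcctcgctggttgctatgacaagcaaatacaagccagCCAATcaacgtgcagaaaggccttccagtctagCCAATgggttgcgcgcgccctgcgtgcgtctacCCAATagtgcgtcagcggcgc
Cdk1: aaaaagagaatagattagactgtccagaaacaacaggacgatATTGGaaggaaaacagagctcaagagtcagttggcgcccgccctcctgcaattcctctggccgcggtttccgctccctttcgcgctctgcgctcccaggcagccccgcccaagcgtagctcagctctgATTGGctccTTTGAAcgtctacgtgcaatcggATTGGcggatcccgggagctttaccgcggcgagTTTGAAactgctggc
Plk1: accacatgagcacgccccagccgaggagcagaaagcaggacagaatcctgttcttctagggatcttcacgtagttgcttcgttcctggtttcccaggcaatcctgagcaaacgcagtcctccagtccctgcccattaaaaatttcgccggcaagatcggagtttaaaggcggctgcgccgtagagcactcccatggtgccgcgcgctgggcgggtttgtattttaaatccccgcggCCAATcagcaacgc
Cdc20: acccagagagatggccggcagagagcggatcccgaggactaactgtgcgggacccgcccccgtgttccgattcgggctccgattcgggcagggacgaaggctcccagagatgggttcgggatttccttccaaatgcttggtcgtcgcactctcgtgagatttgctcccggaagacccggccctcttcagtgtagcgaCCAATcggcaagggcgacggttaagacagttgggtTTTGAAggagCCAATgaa
Ccnb2 has CCAAT beginning 87, 54 and 21 bases before its start site and TTTGAA at 167, and Cdk1 has TTTGAA at 71 and 15. Cdc20 has TTTGAA at 18 and CCAAT at 53 and 8, and Plk1 has CCAAT at 14. A promoter was found for 42 of the 50 mitosis genes. CCAAT stood in 30 of the 42 (71.4%), against 9314 of 27025 genes (34.5%), and TTTGAA in 11 (26.2%), against 4398 (16.3%). Neither was particular to this list: of 44 DNA replication genes with a promoter, 27 held CCAAT (61.4%) and 8 held TTTGAA (18.2%). These matches describe the letters in this window and do not show binding.

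Cdk1, the kinase that starts mitosis, had 0.439, 1.28, 0.220 and 0.419 CPM untreated and 18.4, 50.6 and 19.7 CPM after CCl4. It rose by 5.71 ± 1.14 log2 (adjusted p = 0.00257). Ccnb2, a B-type cyclin that activates it, had 0.263, 0.342, 0.220 and 0.168 CPM and then 29.7, 67.0 and 24.3 CPM, a rise of 7.31 ± 1.21 (adjusted p = 0.000806). The groups of both genes were far apart, with every CCl4 library over 10 times the highest untreated one. Without CCl4 replicate 2 the values were 5.06 and 6.72, and Cdk1 had 6.34 without untreated replicate 2.

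Plk1, a kinase of spindle assembly and cytokinesis, had 0.0838 to 0.176 CPM untreated and 11.9, 52.9 and 9.77 CPM after CCl4 (7.42 ± 1.48 log2, adjusted p = 0.00258). Cdc20, which activates the complex that ends metaphase, had 0.0838 to 0.440 CPM untreated and 30.7, 122 and 31.4 CPM after CCl4 (7.65 ± 1.64, adjusted p = 0.0039). Mki67 (ENSMUSG00000031004, mm10 chromosome 7, 135689784 to 135716361), which coats mitotic chromosomes and marks cycling cells, had 0.0838 to 0.605 CPM untreated and 43.1, 200.4 and 38.4 CPM after CCl4. It rose by 8.33 ± 1.56 log2 (adjusted p = 0.00167), by 7.12 without CCl4 replicate 2 and by 9.08 without untreated replicate 3. Foxm1, the forkhead factor that drives many of these genes, had 0.132 to 0.220 CPM untreated and 5.62, 27.8 and 6.54 CPM after CCl4 (6.23 ± 1.06, adjusted p = 0.000964). Without CCl4 replicate 2 Plk1, Cdc20 and Foxm1 had 6.22, 6.66 and 5.08.

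Members that went against the block were few, and were chosen after their values were seen. Pttg1 (securin, an inhibitor of separase) was the 1 mitosis gene called lower: it had 13.2, 32.7, 18.4 and 16.8 CPM untreated and 10.2, 9.69 and 13.7 CPM after CCl4, with overlap. Its fall of 0.85 ± 0.26 log2 (adjusted p = 0.0276) was not called without untreated replicate 2 (-0.53) or without CCl4 replicate 1 or 2 (-0.80 and -0.76). Mybl2, a MYB factor of the same programme, had 0.0878 to 1.03 CPM untreated and 0.536 to 1.5 CPM after CCl4 and was not called (0.81 ± 0.70 log2, adjusted p = 0.495).

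**Figure D3:**
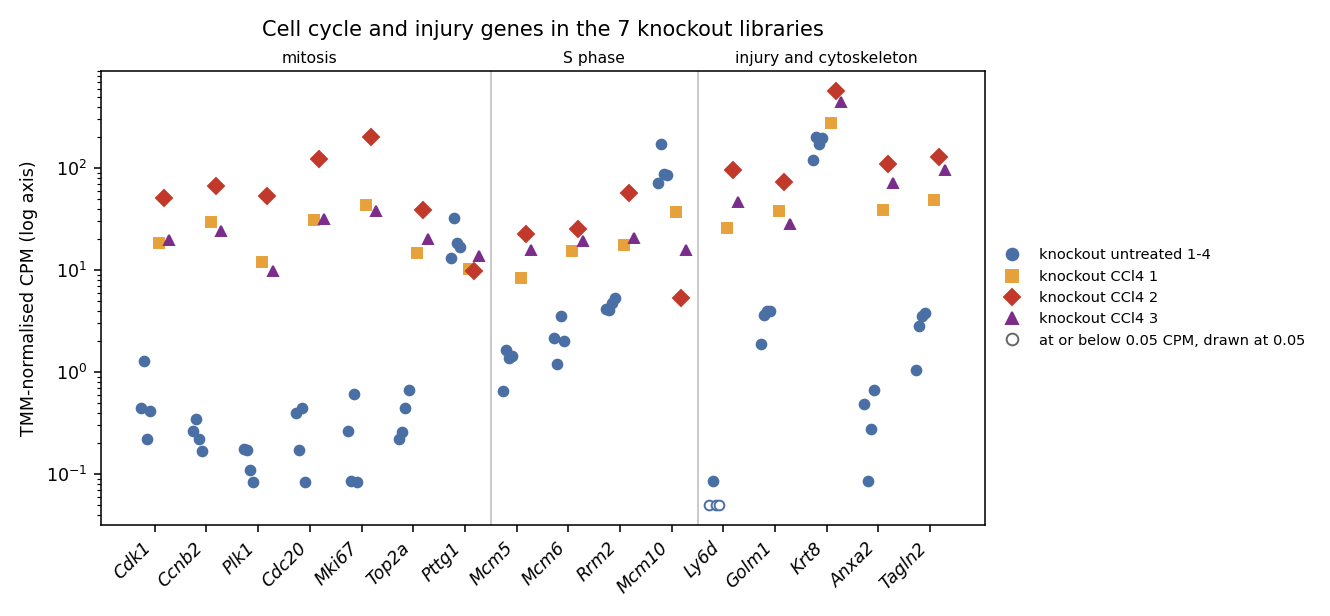
CPM (log axis) of 16 named genes in the 4 untreated and 3 CCl4 knockout libraries; open circles stand for values at or below 0.05 CPM. The mitosis genes other than Pttg1 lie above untreated in all 3 CCl4 libraries. Mcm10 lies below untreated in all 3, and Pttg1 overlaps untreated.

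DNA replication genes were called in part. Of 50 tested genes of 52, 25 were called higher and 1 lower, against the 12.1% and 6.96% of all genes (21 and 1 without replicate 3), with medians of 0.76, 1.67 and 1.30 log2 in replicates 1, 2 and 3. By role, 10 of 14 genes of the MCM helicase and its loading, 10 of 24 of polymerases, clamp and histone chaperones, 4 of 7 of nucleotide supply and 1 of 5 E2F factors were called higher. Of 44 genes with a promoter, 10 held the E2F-type motif TTTNNCGC in the 250 bases before their start site (22.7%), against 1186 of 27025 (4.39%) of all genes and 3 of 42 mitosis genes (7.14%). The motif overlaps itself on the 2 strands. Mcm5 (chr8:75109259-75109508, plus strand) and Mcm6 (chr1:128359706-128359955, minus strand) are shown as the helicase members that hold it, with its matches in capitals.
Mcm5: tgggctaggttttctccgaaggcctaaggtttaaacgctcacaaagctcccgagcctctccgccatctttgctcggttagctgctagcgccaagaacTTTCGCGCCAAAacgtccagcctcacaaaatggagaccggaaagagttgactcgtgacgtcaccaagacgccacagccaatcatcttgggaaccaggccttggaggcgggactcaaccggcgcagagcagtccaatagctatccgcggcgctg
Mcm6: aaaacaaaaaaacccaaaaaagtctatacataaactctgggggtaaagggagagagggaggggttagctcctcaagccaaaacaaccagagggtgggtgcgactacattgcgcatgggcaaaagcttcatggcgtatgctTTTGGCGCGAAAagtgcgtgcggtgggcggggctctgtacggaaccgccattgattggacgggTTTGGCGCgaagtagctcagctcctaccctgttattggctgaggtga

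Mcm6 had 2.15, 1.20, 3.52 and 2.01 CPM untreated and 15.4, 25.1 and 19.1 CPM after CCl4. Mcm5, a subunit of the same ring, had 0.659, 1.63, 1.37 and 1.42 CPM and then 8.31, 22.5 and 15.8 CPM, a rise of 3.62 ± 0.51 log2 (adjusted p = 0.000391). Mcm3 rose by 2.80 ± 0.45 log2 (adjusted p = 0.000677). None of these 3 genes had overlapping groups, nor had 25.2% of all genes. Rrm2, the subunit that limits deoxynucleotide supply, had 4.02 to 5.28 CPM untreated and 17.8, 57.4 and 20.4 CPM after CCl4 (2.81 ± 0.38, and 2.06 without replicate 2).

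Pcna, the sliding clamp of DNA polymerase, stood at 16.9 to 24.6 CPM untreated and 25.3, 29.0 and 43.9 CPM after CCl4. Its 0.68 ± 0.23 log2 was at the edge of the threshold (adjusted p = 0.0489; 0.42 and adjusted p = 0.283 without replicate 3). Of the 17 fits that left out 1 library 12 gave no call, all but those without knockout untreated replicate 2, knockout CCl4 replicate 1 or wild type CCl4 replicate 2, 4 or 5, with values of 0.42 to 0.83. Mcm10 (ENSMUSG00000026669, chromosome 2, 4989714 to 5012791), which helps to start replication forks, went the other way. It had 71.7, 173, 87.3 and 85.2 CPM untreated and 37.2, 5.33 and 15.8 CPM after CCl4, and fell by 2.43 ± 0.54 log2 (adjusted p = 0.00456), by 3.33 without replicate 1. With knockout samples alone Mcm10 was not called.

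Genes of G1 and the p53 response were called in part. Of 16 tested G1 cyclins, CDKs and inhibitors of 18, 5 were higher and 1 lower, against the 12.1% and 6.96% of all genes (4 and 0 without replicate 3). Ccnd1 (cyclin D1), which carries hepatocytes past the restriction point, had 4.88 to 20.6 CPM untreated and 74.1, 139 and 67.8 CPM after CCl4, a rise of 2.68 ± 0.48 log2 (adjusted p = 0.0013). Among the CDK inhibitors, Cdkn2c (p18) had 2.43 to 3.96 CPM untreated and 7.77, 14.3 and 12.1 CPM after CCl4 (1.92 ± 0.32, adjusted p = 0.000774). Cdkn1a (p21) had 7.25, 6.67, 91.8 and 32.2 CPM untreated and 85.1, 126 and 102 CPM after CCl4, with overlap, and was not called (1.6 ± 0.68, adjusted p = 0.122). The pocket proteins that restrain E2F split: Rbl1 rose by 2.78 ± 0.50 log2, while Rbl2, chosen after its values were seen, fell by 0.89 ± 0.26 (adjusted p = 0.0243; -0.65 and adjusted p = 0.118 without CCl4 replicate 3, and no call without untreated replicate 1, -0.83, or 4, -0.75). Myc stood at 2.11 to 9.30 CPM untreated and 46.3, 1.82 and 26.6 CPM after CCl4 and was not called (adjusted p = 0.0949): replicate 2, the library richest in mitosis genes, was below every untreated one.

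Of 27 genes of the p53 list 10 were higher and none lower, against the 12.1% and 6.96% of all genes, and the numbers were the same without replicate 3. Phlda3, a p53 target that blocks Akt, had 0.0838 to 0.395 CPM untreated and 4.72, 6.83 and 5.91 CPM after CCl4, evenly over the 3 replicates. Gtse1 and Psrc1, which were chosen after their values were seen, rose by 3.95 ± 0.75 (3.28 without replicate 2) and 4.18 ± 0.59 log2; both encode microtubule proteins of the dividing cell as well. Pmaip1 (Noxa), a killer protein of the BCL2 family and also chosen in this way, had 0.0878, 0, 0 and 0 CPM untreated and 1.20, 1.68 and 33.0 CPM after CCl4, so replicate 3 was the highest (8.35 ± 1.43 log2; 5.34 without it and 10.66 without untreated replicate 1). The untreated group held 2 counts of Pmaip1, and the ratio of pooled counts was 273.3, with a 95% counting interval of 75.2 to 2263. It was 48.4 without CCl4 replicate 3, 481 without CCl4 replicate 2 and at least 118 without untreated replicate 1.

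Injury-associated surface, keratin and cytoskeletal genes were higher in part. Of 7 tested keratin and injury markers of 11, 6 were higher and 1 lower (4 and 0 without replicate 3). Ly6d (ENSMUSG00000034634, chromosome 15, 74762056 to 74763620), a GPI-anchored protein known from skin and B cell progenitors, had 0, 0.0856, 0 and 0 CPM untreated and 25.6, 96.4 and 46.1 CPM after CCl4. It rose by 11.26 ± 0.70 log2, by 10.58 without CCl4 replicate 2 and by 12.95 without untreated replicate 2. Its ratio of pooled counts was 4171, with a 95% counting interval of 748 to 164790, and was 2223 without CCl4 replicate 2, 2700.2 without untreated replicate 1 and at least 1139 without untreated replicate 2. The 8 B and plasma cell genes summed to 0.428 to 2.47 CPM untreated and to 0.478, 7.29 and 293 CPM in CCl4 replicates 1, 2 and 3, and their part in Ly6d was not tested. Golm1, a Golgi protein known from diseased liver, had 1.89, 3.59, 3.96 and 3.94 CPM untreated and 37.7, 72.6 and 28.5 CPM after CCl4 (3.80 ± 0.31 log2, adjusted p = 7.09e-06).

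Krt8, the type II keratin of hepatocytes, had 119 to 202 CPM untreated and 279, 566 and 443 CPM after CCl4 (1.31 ± 0.24 log2, adjusted p = 0.00149). Its partner Krt18 had 104 to 154 CPM untreated and 131, 292 and 347 CPM after CCl4, with overlap through replicate 1; its 0.97 ± 0.27 log2 (adjusted p = 0.0192) fell short without replicate 3 (0.69, adjusted p = 0.124), CCl4 replicate 2 (0.86) or untreated replicate 1 (0.87). Krt23, a stress keratin, was the member called lower, at 0.0856 to 1.71 CPM untreated and 0.120, 0.179 and 0 CPM after CCl4 (-2.79 log2, adjusted p = 0.0476). It had no call in 14 of the 17 fits that left out 1 library, all but those without knockout untreated replicate 2 or wild type CCl4 replicate 1 or 2, with -2.06 to -3.48 log2. Cd63, a late endosome tetraspanin, had 1.54 to 4.56 CPM untreated and 36.0, 55.5 and 120 CPM after CCl4 (4.51 ± 0.63, and 3.89 without replicate 3).

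Of 28 tested annexin, S100 and cytoskeleton genes of 31, 16 were higher, 12 were not called and none was lower, and 12 were higher without replicate 3, with medians of 1.45, 1.66 and 3.07 log2 in replicates 1, 2 and 3. Anxa2 (ENSMUSG00000032231, chromosome 9, 69453620 to 69491795), which binds membrane phospholipid with calcium, had 0.483, 0.0856, 0.275 and 0.670 CPM untreated and 38.7, 109 and 71.8 CPM after CCl4. It rose by 7.55 ± 0.68 log2 (adjusted p = 1.24e-05) and by 7.56 without replicate 3. Tagln2, an actin-binding protein, had 1.05, 2.82, 3.52 and 3.77 CPM untreated and 49.0, 128 and 95.3 CPM after CCl4 (5.04 ± 0.48, adjusted p = 1.66e-05).

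Other members of this list were high in replicate 3 above all, as the macrophage markers were. Lgals3 (galectin-3, abundant in macrophages) had 0.0439, 0, 0.110 and 0 CPM untreated and 3.77, 11 and 231 CPM after CCl4, with a log2 fold change of 10.58 ± 1.47, and 7.16 without CCl4 and 11.48 without untreated replicate 3. The ratio of its pooled counts was 1237, with a 95% counting interval of 423 to 6002. Tmsb4x, an actin-sequestering peptide, had 12.1, 20.9 and 550.3 CPM after CCl4, and Vim, the filament of mesenchymal and myeloid cells, 6.94, 14.6 and 164 CPM. Without replicate 3 their log2 fold changes were 4.64 and 4.31, against 8.20 and 6.84 with it, and Vim had 7.5 without untreated replicate 4. For these 3 genes the part of other cells in the rise was not tested.

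Of 11 tested fetal and imprinted genes of 14, 7 were higher and none lower (5 without replicate 3). Afp, the fetal counterpart of albumin, had 0.263, 0.770, 1.98 and 4.02 CPM untreated and 12, 37.4 and 19.9 CPM after CCl4 (3.74 ± 0.67 log2, and 4.52 without untreated replicate 4). H19, an imprinted noncoding RNA, had 0 to 0.428 CPM untreated and 4.66, 31.4 and 7.25 CPM after CCl4 (6.69 ± 0.98 log2, adjusted p = 0.000794; 5.37 without CCl4 and 7.82 without untreated replicate 2). Dlk1, a Notch-like ligand of fetal hepatoblasts, had no count untreated and 2.21, 7.65 and 0.394 CPM after CCl4, at least 96.0-fold above a floor of 3 counts over the untreated group, at least 30.7-fold without CCl4 replicate 2 and 62.1-fold without untreated replicate 1. In these 3 genes replicate 2 was the highest.

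**Figure D4:**
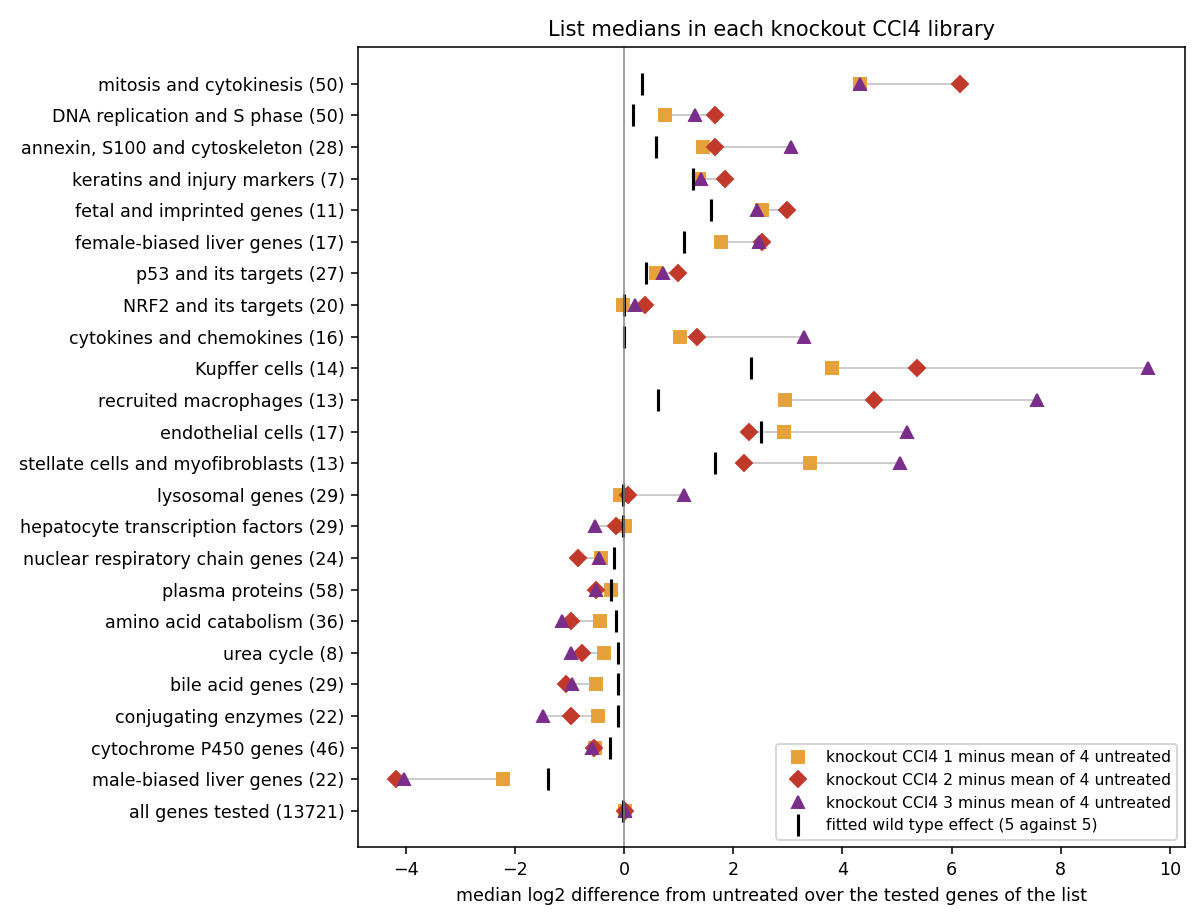
Median log2 difference from the mean of the 4 untreated libraries over the tested genes of each list (number in brackets), for each knockout CCl4 library, with the fitted wild type effect as a bar. Mitosis stands at 4.32, 6.15 and 4.32, male-biased genes at -2.22, -4.18 and -4.02, and Kupffer markers spread from 3.81 to 9.59.

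Male-biased liver genes fell after CCl4. Of 22 genes 20 were lower and none higher (17 without replicate 3), with medians of -2.22, -4.18 and -4.02 log2 in replicates 1, 2 and 3. Hsd3b5, a steroid dehydrogenase of the male liver, had 95.5, 202, 183 and 114 CPM untreated and 1.67, 0.107 and 0.315 CPM after CCl4. Slco1a1, an uptake carrier of organic anions, had 275 to 546 CPM untreated and 83.5, 20.3 and 20.3 CPM after CCl4. Their log2 fold changes were -7.79 ± 0.77 and -3.37 ± 0.50, and -9.64 and -4.40 without replicate 1; Hsd3b5 had -7.16 without replicate 2. Susd4, a complement regulator, had 12.1 to 20.4 CPM and then 2.99, 2.25 and 1.42 CPM, a fall of 2.78 ± 0.41 log2 (adjusted p = 0.00046). Elovl3, a fatty acid elongase, was uneven: it had 47.9, 61.6, 657 and 268 CPM untreated and 29.6, 0.322 and 0.394 CPM after CCl4. Its -4.68 ± 1.55 log2 (adjusted p = 0.0446) was not called in 10 of the 17 fits that left out 1 library, with values of -3.64 (without untreated replicate 3) to -9.51 (without CCl4 replicate 1), nor with library totals alone (-4.42) or knockout samples alone (-4.65). C6, a complement component, and Ugt2b38 were the 2 members not called.

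The major urinary protein (Mup) genes, which encode pheromone carriers, were the most abundant of these. Summed over 41 Mup genes and pseudogenes, levels were 33937, 173091, 91856 and 78105 CPM untreated and 13577, 1368 and 1671 CPM after CCl4. Replicate 1 was well above the other 2 and still below every untreated library. Mup3 had 4082, 11251, 7319 and 7647 CPM untreated and 1245, 208 and 283 CPM after CCl4 (-3.71 ± 0.53 log2, adjusted p = 0.000391; -4.96 without replicate 1). Mup7 had 7738 to 46950 CPM untreated and 1731, 56.7 and 116 CPM after CCl4 (-5.40 ± 1.12, and -8.29 without replicate 1), and Mup15 had 9.0 to 2095 CPM untreated and no count in any CCl4 library, at least 13444-fold below by a floor of 3 counts over the CCl4 group. That bound was 2986 without untreated replicate 3, 6896 without CCl4 replicate 2 and 20674 without untreated replicate 1, and limma voom did not call Mup15. Start regions of some copies were close when aligned without gaps at the best offset. Those of Mup7 and Mup15 were identical at 169 of 173 aligned bases (97.7%), those of Mup15 and Mup17 at 225 of 298 (75.5%) and those of Mup7 and Mup3 at 142 of 220 (64.5%). Transcripts were not compared, so how far reads of single copies can be told apart was not tested, and their counts remain uncertain.

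Of the 15 largest falls called whichever CCl4 library was left out, 11 were of the Mup cluster: beside Mup7 and Mup15 these were Mup1, Mup6, Mup8, Mup12, Mup13, Mup14, Mup16, Mup17 and the pseudogene Mup-ps17. Mup14, the most abundant of the 9, had 3484 to 28524 CPM untreated and 1384, 78.9 and 229 CPM after CCl4 (-4.58 ± 0.89 log2; -6.47 without CCl4 replicate 1 and -3.91 without untreated replicate 2). Mup1 had 373 to 4094 CPM and then 68.6, 3.47 and 1.02 CPM (-6.12 ± 1.28; -9.50 and -5.19 without the same libraries), and Mup12 had 113 to 1606 CPM and then 10.5, 0.322 and 0 CPM (-7.20 ± 1.45; -11.27 without CCl4 replicate 1 and -5.57 without untreated replicate 2). Mup1 and Mup12 were not called with knockout samples alone. Mup-ps17 had 163 to 481 CPM untreated, 4.72 CPM in replicate 1 and no count in replicates 2 and 3 (-7.48 ± 1.68 log2; -6.83 without CCl4 replicate 2). The other 5 had log2 fold changes of -6.49 (Mup17, not called by limma voom), -4.81 (Mup13), -4.43 (Mup8), -4.27 (Mup6) and -4.19 (Mup16), and of -7.30, -5.69, -6.10, -6.59 and -5.41 without CCl4 replicate 1. Mup17 had -5.53 without untreated replicate 3 and Mup16 -3.60 without untreated replicate 2. In all 9 replicate 1 was the highest of the CCl4 libraries. No groups overlapped, nor did those of 25.2% of all genes, and the choice of these genes favoured such separation.

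Hsd3b5 was another of the 15, and the last 3 were Moxd1, Selenbp2 and Slc22a28. Slc22a28, of a family of organic anion carriers, had 21.7, 13.5, 17.4 and 14.9 CPM untreated and 1.20, 0 and 0.0788 CPM after CCl4 (-5.36 ± 0.80 log2, adjusted p = 0.000495; -9.02 without replicate 1 and -4.64 without replicate 2). Selenbp2, a selenium-binding protein, had 203 to 806 CPM and then 64.4, 4.22 and 10.8 CPM (-4.30 ± 0.74, adjusted p = 0.00106; -6.14 without replicate 1). Moxd1, a monooxygenase, was uneven among the untreated libraries, at 305, 290.1, 6.98 and 8.29 CPM, and had 0.419, 0.0358 and 0 CPM after CCl4. Its -9.98 ± 2.4 log2 (adjusted p = 0.00773) was -12.25 without CCl4 replicate 1, -9.32 without CCl4 replicate 2 and -9.40 without untreated replicate 1, and limma voom did not call it.

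Of 12 genes of the growth hormone axis 3 were lower and 1 higher, and 1 and 1 with library totals alone. Ghr, the receptor, had 416, 325, 510.0 and 481 CPM untreated and 263, 189 and 80.8 CPM after CCl4, a fall of 1.28 ± 0.28 log2 (adjusted p = 0.00437) that was not called with library totals alone (-1.03, adjusted p = 0.0588) or with knockout samples alone (-1.26, adjusted p = 0.0808). Igf1, the growth factor that the hormone induces, had 584, 811, 768 and 702 CPM and then 418, 373 and 361 CPM (-0.90 ± 0.19, adjusted p = 0.0039), with no call with library totals alone (-0.69, adjusted p = 0.0513). Igfals, which stabilises IGF1 in plasma, had 106 to 196 CPM and then 55.5, 43.3 and 45.5 CPM (-1.62 ± 0.26, adjusted p = 0.000641). None of the 3 had overlapping groups, nor had 25.2% of all genes.

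Of the transducers, Stat5b was not called, at 37.1 to 68.3 CPM untreated and 77.5, 69.5 and 29.8 CPM after CCl4 (0.08 ± 0.32 log2, adjusted p = 0.911). Stat5a was the member called higher (0.81 ± 0.25, adjusted p = 0.0329), but with 10.5, 7.44, 12.8 and 11.2 CPM untreated and 23.9, 19.6 and 11.7 CPM after CCl4 the groups overlapped; without CCl4 replicate 1 it was 0.57 (adjusted p = 0.164), and it had no call either without CCl4 replicate 2 (0.76) or untreated replicate 1 (0.81), 2 (0.68) or 4 (0.84).

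Of 17 tested female-biased genes of 23, 7 were higher and none lower (6 without replicate 3). Cyp2b9, a female P450, had no count untreated and 14.9, 48.6 and 26.1 CPM after CCl4, at least 728-fold above a floor of 3 counts over the untreated group, at least 425-fold without CCl4 replicate 2 and 471-fold without untreated replicate 1. Cyp2a4, another, had at most 0.257 CPM untreated and 25.9, 99.7 and 72.8 CPM after CCl4 (9.88 ± 0.95 log2, and 11.32 without untreated replicate 2). Prom1 (prominin-1) and the carrier Slc16a5, both chosen after their values were seen, had 0 to 0.0550 and 0.989 to 3.85 CPM untreated. After CCl4 Prom1 had 0.777, 23 and 6.07 CPM and Slc16a5 had 18.8, 24.9 and 24.1 CPM; Prom1 had a log2 fold change of 8.07 ± 1.26, and 6.52 without replicate 2, with a ratio of pooled counts of 413 (95% counting interval 114 to 3414). Cd36, a fatty acid transporter also present in macrophages and endothelium, had 18.1, 17.8 and 119 CPM after CCl4 (5.05 ± 0.85 log2, and 3.52 without replicate 3). Several female genes were low throughout: Sult2a1, Sult3a1 and A1bg had under 1 CPM in all 7 libraries and were not tested. Cyp17a1, a steroid hydroxylase, was called at 1.70 ± 0.46 log2 (adjusted p = 0.0161), but not without replicate 3 (1.19, adjusted p = 0.118).

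**Figure D5:**
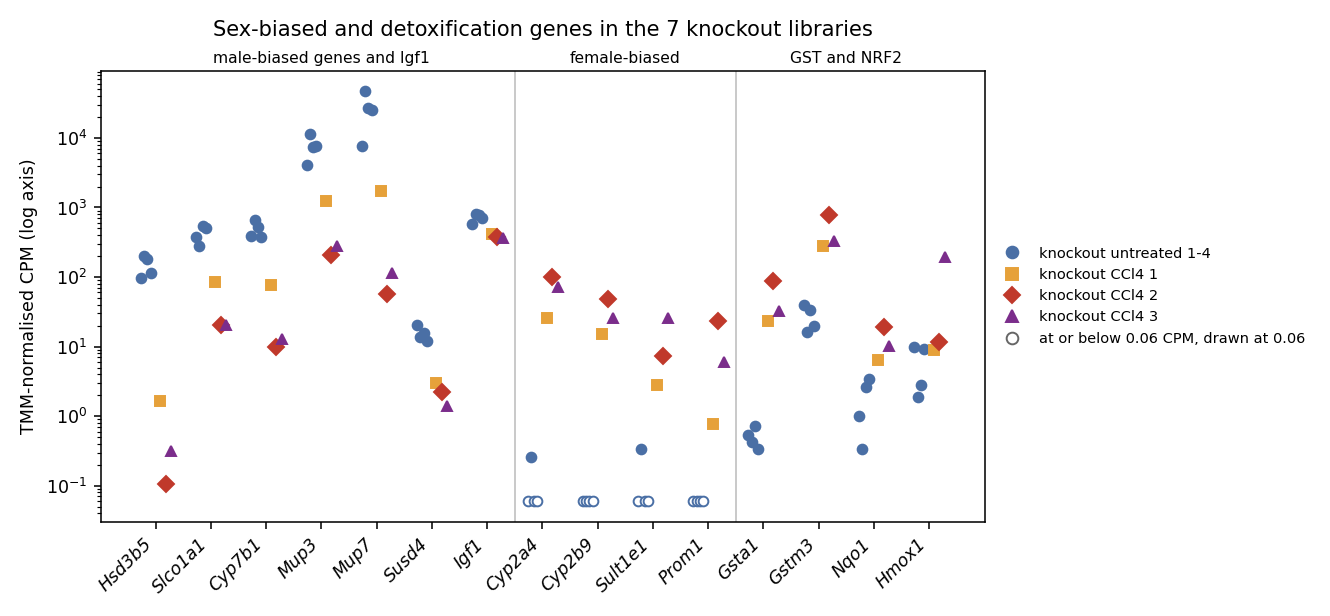
CPM (log axis) of male-biased and female-biased genes, Igf1, glutathione transferases and NRF2 targets in the 7 knockout libraries; open circles stand for values at or below 0.06 CPM. Male-biased genes lie lower in all 3 CCl4 libraries with replicate 1 nearest to untreated, and Hmox1 is high in replicate 3 only, at 193 CPM.

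Cytochrome P450 genes were called in both directions: of 46 tested of 48, 7 were higher and 18 lower (7 and 15 without replicate 3). Of the 7 rises 6 fell in 2 groups. In the Cyp2a and Cyp2b family 3 of 6 were higher, among them Cyp2b10, the classical target of the receptor CAR, with 0 to 2.58 CPM untreated and 28.3, 14 and 12.4 CPM after CCl4 (3.69 ± 0.71 log2, adjusted p = 0.00192). Among the fatty acid hydroxylases of Cyp4a and Cyp4f 3 of 10 were higher and 6 lower. Cyp4a14, a target of PPARA, had 0.171 to 3.46 CPM untreated and 35.9, 11.8 and 37.6 CPM after CCl4 (4.09 ± 0.83, adjusted p = 0.00281; 4.78 without untreated replicate 3), and Cyp4a10 had 5.99 to 25 CPM and then 139, 38.5 and 91.8 CPM (2.56 ± 0.60, adjusted p = 0.007). Replicate 1 was above replicate 2 for all 3 of these genes.

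In the Cyp2d, Cyp2f and Cyp2j families 7 of 9 were lower and none higher. Cyp2f2, a lung-type P450 of periportal hepatocytes, had 1432, 3062, 1930 and 2112 CPM untreated and 804, 198 and 168 CPM after CCl4 (-2.45 ± 0.45, adjusted p = 0.00147; -3.55 without replicate 1). Cyp2e1 itself had 1114, 127, 2434 and 2200 CPM untreated and 628, 424 and 446 CPM after CCl4, with overlap through untreated replicate 2, and was not called (-1.56 ± 0.61 log2, adjusted p = 0.0917). None of the 6 enzymes that activate CCl4 or pass it electrons was called, and their median turned from -0.12 to 0.10 log2 with library totals alone.

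Glutathione transferases, which couple glutathione to electrophiles, were higher for 7 and lower for 4 of 23 (8 and 3 without replicate 3). Gsta1 had 0.335 to 0.714 CPM untreated and 23.4, 87.9 and 32.3 CPM after CCl4. Gstm3 (ENSMUSG00000004038, chromosome 3, 107963696 to 107969283) had 16.3 to 39.6 CPM and then 278, 777 and 332 CPM, and Gstt3 had 9.24 to 12.1 CPM and then 36.2, 50.9 and 29.3 CPM (1.85 ± 0.30 log2, adjusted p = 0.000689). Without replicate 2 Gsta1 and Gstm3 had 5.74 and 3.48 log2, against 6.52 and 4.08 with it. Gstp1, a male-biased member, was lower, at 2888 to 4988 CPM untreated and 2114, 1598 and 1403 CPM after CCl4 (-1.03 ± 0.23, adjusted p = 0.00455). With knockout samples alone Gstp1 was not called.

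Of 20 genes of NRF2, a transcription factor of the response to electrophile stress, and its targets 6 were higher and none lower (5 without replicate 3). Nfe2l2, which encodes the factor, and its inhibitor Keap1 were not called. Nqo1, a quinone reductase, had 0.342 to 3.43 CPM untreated and 6.52, 19.1 and 10.1 CPM after CCl4 (2.69 ± 0.54 log2, adjusted p = 0.00263). Srxn1, which repairs peroxiredoxins, had 18.8 to 22.2 CPM and then 71.5, 199 and 43.3 CPM (2.34 ± 0.38, and 1.47 without replicate 2). Pgd, a source of NADPH chosen after its values were seen, had 21.5 to 35.7 CPM and then 55.1, 93.7 and 75.9 CPM. Hmox1, the haem oxygenase that macrophages also carry, had 8.97, 11.8 and 193 CPM after CCl4 against 1.88 to 9.92 CPM untreated: its 3.58 ± 0.81 log2 (adjusted p = 0.00564) was 0.80 without replicate 3 (adjusted p = 0.314).

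Enzymes against peroxide and superoxide were lower for 6 and higher for 3 of 15 (5 and 3 without replicate 3), with a median of -0.13 log2 that was 0.06 with library totals alone, where 2 were lower. Cat (catalase) had 2677, 3392, 3189 and 3025 CPM untreated and 2052, 1283 and 641 CPM after CCl4 (-1.21 ± 0.27 log2, adjusted p = 0.00534). Gpx1, the main glutathione peroxidase, fell by 0.97 ± 0.19 and Sod2, of the mitochondrial matrix, by 0.82 ± 0.14. Cat and Sod2 were not called with library totals alone, and Cat and Gpx1 were not called with knockout samples alone. Of 22 tested conjugating enzymes of 25, 10 were lower and 1 higher, the same numbers without replicate 3. Ugt2b1, a glucuronosyltransferase, had 395 to 597 CPM and then 147, 105 and 63.0 CPM (-2.22 ± 0.26, adjusted p = 0.000117). Sult2a8, a bile acid sulfotransferase, had 361 to 592 CPM and then 107, 14.4 and 14.5 CPM (-3.43 ± 0.59, adjusted p = 0.000964; -5.09 without replicate 1). Sult1e1, which sulfates oestrogens, was the 1 higher member, with 2.81, 7.22 and 25.8 CPM after CCl4 (7.29 ± 1.06; 6.03 without replicate 3 and 10.71 without untreated replicate 2).

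Amino acid and urea cycle genes were lower in part. Of 36 genes of amino acid catabolism 22 were lower and none higher, 12 without replicate 3 and 11 with library totals alone. Tdo2, which opens tryptophan breakdown, had 1252 to 1698 CPM untreated and 820, 328 and 317 CPM after CCl4 (-1.55 ± 0.29, and -2.16 without replicate 1). Hal, the first enzyme of histidine breakdown, had 335 to 779 CPM and then 206, 124 and 142 CPM (-1.57 ± 0.30 log2, adjusted p = 0.00192), and Agxt, which detoxifies glyoxylate, fell by 1.13 ± 0.21 (adjusted p = 0.00174). Of the 8 urea cycle genes 4 were lower and none higher, 2 lower without replicate 3, and 2 lower and 1 higher with library totals alone. Otc had 399.9 to 844 CPM and then 341, 201 and 179 CPM (-1.23 ± 0.29, adjusted p = 0.00657), a call not met with knockout samples alone. Cps1, Ass1 and Asl, the other 3, had log2 fold changes of -0.78, -0.93 and -1.07; without replicate 3 Cps1 and Ass1 were not called (-0.49 and -0.72, adjusted p = 0.122 and 0.0697), and without replicate 2 neither were Cps1 (-0.87) and Asl (-0.81). Cps1 had no call either without untreated replicate 1 (-0.76), 3 (-0.77) or 4 (-0.75).

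Glucose genes were called in both directions. Of 11 genes of gluconeogenesis and glycogen 7 were lower and none higher, and of 18 of glycolysis 6 were higher and none lower (5 and 6 without replicate 3). With library totals alone 6 of the 29 were higher and 3 lower. Pck1, the gatekeeper of gluconeogenesis, had 3278 to 5081 CPM untreated and 2299, 816 and 692 CPM after CCl4 (-1.77 ± 0.42 log2, adjusted p = 0.00664; -2.53 without replicate 1). Fbp1, a phosphatase of gluconeogenesis, fell by 0.85 ± 0.18, a call not met with library totals alone (-0.65, adjusted p = 0.0681) or knockout samples alone (-0.83, adjusted p = 0.0532). Gys2, the liver glycogen synthase, fell by 1.86 ± 0.47, a call not met by limma voom (-1.40, adjusted p = 0.0819). Ldha, lactate dehydrogenase, had 519 to 612 CPM and then 1088, 1380.2 and 1423 CPM (1.17 ± 0.21, adjusted p = 0.00122). Pkm and Hk2, the forms of pyruvate kinase and hexokinase found outside hepatocytes, had 9.81, 15.8 and 168 and 0.717, 1.39 and 24.3 CPM after CCl4, an order of replicates like that of the macrophage markers. Pkm had 6.47 log2, and 4.15 without replicate 3. Hk2 had no count untreated and was at least 135-fold above a floor of 3 counts over that group, and at least 24.6-fold without CCl4 replicate 3, 235-fold without CCl4 replicate 2 and 87.4-fold without untreated replicate 1.

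Bile acid genes were lower for 12 and higher for 3 of 29 tested of 30, against the 6.96% and 12.1% of all genes (10 and 3 without replicate 3). Cyp7a1, the rate-limiting enzyme of bile acid synthesis, was among the higher, at 8.96, 2.91, 24.6 and 3.43 CPM untreated and 165, 45.9 and 45.6 CPM after CCl4 (3.08 ± 0.78 log2, adjusted p = 0.011; 2.17 and adjusted p = 0.0609 without CCl4 replicate 1, and 4.03 without untreated replicate 3). Cyp8b1, which makes cholic acid, was lower, at 131 to 425 CPM and then 116, 8.44 and 26.2 CPM (-2.43 ± 0.63, adjusted p = 0.0127; -2.12 and adjusted p = 0.0695 without replicate 3, -3.99 without replicate 1). Slc10a1, the uptake carrier NTCP, had 309 to 589 CPM and then 256, 129 and 160.1 CPM (-1.44 ± 0.33, adjusted p = 0.00555), and Abcb11, the export pump, fell by 0.81 ± 0.21 (-0.69 and adjusted p = 0.0681 without replicate 2).

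Lipid genes showed single large rises rather than a list-wide move. Among 17 tested genes of lipid uptake and droplets of 19, 3 were higher and 5 lower (3 and 2 without replicate 3), and among 24 of fatty acid oxidation 2 and 2. The shares of all genes were 12.1% higher and 6.96% lower. Lpl (ENSMUSG00000015568, chromosome 8, 68880491 to 68907448), which splits the triglyceride of lipoproteins, had 8.17, 2.91, 11.3 and 5.19 CPM untreated and 250.1, 295 and 374 CPM after CCl4. It rose by 5.46 ± 0.51 log2 (adjusted p = 1.66e-05), nearly evenly over the 3 replicates. Scd2, the desaturase that adult hepatocytes hardly use, had 0.0856 to 0.586 CPM and then 2.45, 26.4 and 19.3 CPM (5.39 ± 0.82, adjusted p = 0.000521). Pdk4, which closes the entry of pyruvate to oxidation, rose by 3.66 ± 0.88 (3.07 without replicate 2) and Acot2, a mitochondrial thioesterase, by 2.53 ± 0.38. Apoa4, an apolipoprotein, had 93.9 to 134 CPM and then 546, 1044 and 1403 CPM.

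Of 58 plasma protein genes 22 were lower and 6 higher, 17 and 4 without replicate 3 and 9 and 6 with library totals alone. C9, the pore-forming complement protein, had 645 to 1164 CPM untreated and 434, 165 and 147 CPM after CCl4 (-1.77 ± 0.34 log2, adjusted p = 0.00198; -2.45 without replicate 1), and Serpina3k, an antiprotease, had 9260 to 14983 CPM and then 5911, 2209.6 and 3810.5 CPM (-1.66 ± 0.29, adjusted p = 0.00104). Trf (transferrin) was among the higher, at 13832 to 17151 CPM and then 21486, 31187 and 21051 CPM (0.64 ± 0.18, adjusted p = 0.0212; 0.43 and adjusted p = 0.154 without CCl4 replicate 2, and no call without untreated replicate 2, 0.58). Alb was not called (0.10 ± 0.23, adjusted p = 0.832).

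Of 21 acute-phase genes 5 were higher and 1 lower, against the 12.1% and 6.96% of all genes (4 and 0 without replicate 3). Lcn2 (lipocalin-2), which binds bacterial siderophores, had 1.36, 3.51, 5.28 and 3.10 CPM untreated and 135, 358 and 825 CPM after CCl4 (7.06 ± 1.00 log2, adjusted p = 0.000391; 6.22 without replicate 3). Orm2, an orosomucoid, had 4.30 to 13.7 CPM and then 47.1, 86.1 and 178 CPM (3.35 ± 0.69, and 2.72 without replicate 3). Crp, the 1 lower member, picked with its values known, had 223 to 387 CPM and then 198, 122 and 126 CPM (-0.95 ± 0.24, adjusted p = 0.0109), with no call without replicate 2 (-0.83) or 3 (-0.85).

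Of the transcription factors that define hepatocytes few were called: of 29 factors and receptors 1 was lower and none higher. That was Cebpa, a factor of liver metabolism, at 553, 558, 239 and 398 CPM untreated and 246, 145 and 196 CPM after CCl4, with overlap through untreated replicate 3 (-1.16 ± 0.28 log2, adjusted p = 0.00874). Cebpa was not called with knockout samples alone or by limma voom. Hnf4a had 524 to 701 CPM untreated and 479, 624 and 297 CPM after CCl4 and was not called (-0.47 ± 0.22, adjusted p = 0.159). Of 14 tested growth factor and receptor genes of 16, 2 were lower and 1 higher, where 6.96% and 12.1% of all genes were. Lifr, the receptor of leukaemia inhibitory factor, had 374 to 528 CPM and then 144, 125 and 69.6 CPM (-1.95 ± 0.26, adjusted p = 0.000272). Egfr, the receptor of epidermal growth factor, had 689.8 to 963 CPM and then 435, 344 and 180.4 CPM (-1.33 ± 0.33, adjusted p = 0.0093; -1.04 without replicate 3, at the edge of the threshold).

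Of the 8 metallothionein and zinc genes 3 were higher, 1 of them without replicate 3. Mt1 had 13.3 to 75.7 CPM untreated and 163, 169 and 1085 CPM after CCl4 (3.33 ± 0.80 log2; 1.82 and adjusted p = 0.116 without replicate 3). Mt2, its neighbour, had 0.856 to 25.7 CPM and then 92.4, 135 and 513 CPM, and was called without replicate 3 (3.08, adjusted p = 0.0482). Tfrc, the transferrin receptor and the 1 gene called among 12 of iron handling, had 13.8 to 21.6 CPM and then 26.7, 62.6 and 42.0 CPM (1.32 ± 0.27, adjusted p = 0.00264). Klf6, an immediate-early zinc finger factor, had 3.08 to 5.58 CPM and then 55.5, 35.9 and 163 CPM (4.28 ± 0.49, adjusted p = 9.36e-05; 3.39 without replicate 3). Ddit3 (CHOP), the death factor of the integrated stress response, had 4.87 to 16.2 CPM and then 23.6, 16.2 and 124 CPM (2.70 ± 0.62, adjusted p = 0.00626; 1.25 and adjusted p = 0.116 without replicate 3).

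Of 17 tested YAP/TAZ targets of 23, 3 were higher and none lower, where 12.1% and 6.96% of all genes were: Axl, Myof and, chosen after its values were seen, Ccdc80. Axl, a receptor kinase that macrophages and stellate cells also carry, had 0.132, 0, 0.0550 and 0.168 CPM untreated and 7.65, 25.8 and 188 CPM after CCl4 (9.53 ± 1.35 log2; 7.41 without replicate 3). Myof (myoferlin), a membrane repair protein, had 0.0878, 0, 0 and 0 CPM and then 1.14, 4.18 and 24.5 CPM (8.09 ± 1.31; 6.22 without CCl4 replicate 3 and 10.39 without untreated replicate 1), with a ratio of pooled counts of 251 (95% counting interval 69.2 to 2082). Ccdc80, a matrix protein, had 4.67 ± 0.94 and 3.53 without replicate 3. Axl and Myof were highest in replicate 3, in the order of the Kupffer sums. Of 16 tested Hippo kinase and TEAD genes 1 was higher, Amotl1, a scaffold of YAP that was chosen after its values were seen, with 3.05, 3.43 and 7.17 CPM after CCl4 (3.85 ± 0.55, adjusted p = 0.000391).

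Markers of macrophages, endothelium and stellate cells were higher after CCl4, most in replicate 3. All 14 Kupffer markers were higher, 12 of them without replicate 3. Clec4f, a lectin of Kupffer cells, had 0 to 0.754 CPM untreated and 6.34, 15.6 and 319 CPM after CCl4 (8.16 ± 1.51 log2, and 4.79 without replicate 3). Cd5l, secreted by macrophages, had 0 to 1.0 CPM and then 10.8, 32 and 719 CPM (9.46 ± 1.55; 5.87 without CCl4 replicate 3 and 10.34 without untreated replicate 4). Timd4, a marker of long-resident Kupffer cells, had 0 to 0.168 CPM and then 0.179, 0.787 and 19.5 CPM, and was not called without replicate 3 (3.18, adjusted p = 0.161), against 6.94 with it and 8.06 without untreated replicate 4; its ratio of pooled counts was 102, with a 95% counting interval of 34.6 to 499.

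Of 15 markers of recruited macrophages 13 were tested and all 13 were higher (11 without replicate 3), with sums of 47.2 to 81.2 CPM untreated and 157, 314 and 2833 CPM after CCl4. Gpnmb, of lipid-laden macrophages, had 0 to 0.168 CPM untreated and 14.5, 51.4 and 544 CPM after CCl4, and Itgax (CD11c) had no count untreated and 1.20, 3.40 and 31.7 CPM. Gpnmb had 10.99 log2, and 8.37 without replicate 3. Itgax was at least 194-fold above a floor of 3 counts over the untreated group, and at least 55.4-fold without CCl4 replicate 3, 308-fold without CCl4 replicate 2 and 125-fold without untreated replicate 1. Ly6c2 of fresh monocytes was at 0, 0.0358 and 1.65 CPM and was not tested. Of 17 endothelial markers 16 were higher, and 8 without replicate 3, with sums of 30.3 to 51 CPM untreated and 187, 137 and 1188 CPM after CCl4. Stab2, a scavenger receptor of sinusoids, had 0 to 2.68 CPM and then 24.5, 19.4 and 113 CPM (5.07 ± 0.86, and 3.82 without replicate 3), while Pecam1, of all endothelium, had 0.879 to 17.5 CPM and then 6.58, 8.33 and 33.7 CPM and was not called.

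Of 13 tested stellate and myofibroblast markers of 18, 10 were higher (7 without replicate 3), and the list summed to 9.56 to 13.1 CPM untreated and 101, 109 and 263 CPM after CCl4. Col3a1, a fibrillar collagen, had 0 to 0.0838 CPM untreated and 15.2, 4.33 and 38.4 CPM after CCl4 (8.98 ± 1.18, and 8.0 without replicate 3; ratio of pooled counts 486, 95% counting interval 134 to 4018), while Acta2 and Timp1 stayed under 1 CPM in all 7 libraries. B and plasma cell genes were near background in replicate 1 and high in replicate 3: Jchain had 0.220 to 0.586 CPM untreated and 0.120, 2.04 and 77.7 CPM after CCl4 (6.20 ± 1.28; 1.6 and no call without replicate 3). Neutrophil markers summed to 1.67, 3.04 and 34.5 CPM after CCl4, with S100a8 at 0, 0 and 3.86 CPM. The part of these cells in the rises of other genes was not tested.

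Of the 15 largest rises called whichever CCl4 library was left out, 3 were Ly6d, Cyp2a4 and Cyp2b9. The other 12 were highest in replicate 3: Gpnmb, Itgax, Il1b, Lgals3 and 8 more genes known from leukocytes. Lyz2, the lysozyme of myeloid cells, had 0 to 0.550 CPM untreated and 27.8, 63.4 and 1042 CPM after CCl4 (10.73 ± 1.57 log2, adjusted p = 0.000472; 7.69 without CCl4 and 11.98 without untreated replicate 3). Rgs1, a brake on G protein signalling in leukocytes, had 0 to 0.335 CPM and then 4.90, 11.7 and 335 CPM (10.40 ± 1.49, adjusted p = 0.000429; 6.51 without CCl4 replicate 3 and 12.12 without untreated replicate 4).

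Wfdc17, Nlrp3, an inflammasome sensor, and Il10, a cytokine that dampens inflammation, had no count untreated. After CCl4 Wfdc17 had 0.717, 0.536 and 44.0 CPM, Nlrp3 0.897, 0.930 and 33.2 CPM and Il10 1.02, 0.644 and 28.8 CPM. Against a floor of 3 counts over the untreated group they were at least 219.7-fold, 174-fold and 150.3-fold higher. Without untreated replicate 1, CCl4 replicate 2 or CCl4 replicate 3 these bounds were 142, 417 and 13 for Wfdc17, 112, 319 and 19.7 for Nlrp3 and 97.3, 279.9 and 16.9 for Il10.

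Cyba, a subunit of the NADPH oxidase of phagocytes, and Cd83, of activated dendritic cells, had 1 count each untreated, and Clec7a (dectin-1, a receptor of fungal glucan) had 2. After CCl4 they had 1.97, 4.36 and 93.7, 2.33, 1.32 and 71.8, and 2.93, 8.62 and 139 CPM. Their ratios of pooled counts were 1511, 1109.9 and 1155.5, with 95% counting intervals of 271 to 59742, 199 to 43884 and 319 to 9548. Without CCl4 replicate 3 the ratios were 224, 109.8 and 209.5, and without CCl4 replicate 2 they were 2679, 2083 and 1989. Without untreated replicate 1 Cyba was at least 326-fold and Cd83 at least 239.5-fold higher, and Clec7a had 748. Without untreated replicate 4 Clec7a had 1884. None of the 12 genes had overlapping groups, nor had 25.2% of all genes, and the choice of the 12 favoured such separation. The part of leukocyte RNA in their rises was not tested.

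MHC class II genes were highest in replicate 3. All 6 tested MHC class II genes of 8 were higher (5 without replicate 3); Cd74, the invariant chain, had 0.483 to 2.01 CPM untreated and 13.2, 27.1 and 378 CPM after CCl4 (6.84 ± 1.08, and 4.05 without replicate 3). MHC class I differed: of 19 genes of class I presentation 1 was higher and 1 lower (none and 2 without replicate 3), with sums of 4383 to 6692 CPM untreated and 4809, 4000.5 and 4627 CPM after CCl4. Of 16 tested cytokines and chemokines of 21, 11 were higher, and 5 without replicate 3. Il1b, a macrophage cytokine, had 0, 0, 0 and 0.0838 CPM untreated and 2.69, 1.61 and 130.0 CPM after CCl4 (10.92 ± 1.67 log2; 6.52 without CCl4 replicate 3 and 12.61 without untreated replicate 4), a ratio of pooled counts of 1958 (95% counting interval 351 to 77375). Cxcl1, a chemokine that hepatocytes make too, had 13.6 to 36.7 CPM and then 124, 49.3 and 172 CPM (2.30 ± 0.55, adjusted p = 0.00775). Of 18 tested genes of TGF-beta signalling 6 were higher and 1 lower, against the 12.1% and 6.96% of all genes (3 and 0 without replicate 3). Tgfb1 had 2.99, 5.69 and 54.6 CPM after CCl4 (4.90 ± 0.92, and 2.64 without replicate 3). Of 29 lysosomal genes 10 were higher and 1 lower (4 and 2 without replicate 3): Ctsd, a protease of most cells, had 197 to 233 CPM untreated and 244, 300.0 and 1572 CPM after CCl4, 1.68 log2 with all 3 replicates and 0.30 without replicate 3 (adjusted p = 0.304).

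Other lists had few calls or turned with the scaling. The 15 mitochondrially encoded genes had no call, with medians of -0.20, -1.21 and 2.36 log2 in replicates 1, 2 and 3. Of 24 nuclear genes of the respiratory chain 10 were lower and none higher (7 without replicate 3 and none with library totals alone). Of 25 interferon-stimulated genes 2 were higher and none without replicate 3, and of 17 clock genes 2 were lower. Of 26 genes of cholesterol synthesis 1 was higher and 2 lower, with a median that turned from -0.12 to 0.16 log2 with library totals alone. The shares of all genes were 12.1% higher and 6.96% lower.

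Whether the CCl4 effect differed from that in wild type was tested by the interaction. For 150 of 13721 genes (1.09%) the difference was called, 109 with a larger value in the knockout and 41 with a smaller one, and 2343 had an unadjusted p under 0.05. Wild type untreated replicate 5 had 757 CPM of summed mitosis genes, where the other 4 had 52.3 to 155 CPM and the wild type CCl4 libraries 193 to 425 CPM. The count was 0 without knockout untreated replicate 1 or 4, wild type untreated replicate 4 or wild type CCl4 replicate 4 or 5, fits of edgeR in which 2152 to 2246 genes had an unadjusted p under 0.05; DESeq2 called 783 genes and limma voom 2 on all libraries. With library totals alone 28 were called, 17 larger and 11 smaller in the knockout (60.7% larger, against 72.7%). It was 2 to 29 without knockout untreated replicate 2 (6) or 3 (3), knockout CCl4 replicate 3 (11), wild type untreated replicate 5 (16) or wild type CCl4 replicate 1 (29), 2 (2) or 3 (4), and 867 without knockout CCl4 replicate 1.

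Differences were ranked among genes with a mean of at least 10 CPM in any group. The 3 of these with the smallest p values kept this call in most of the 17 fits that left out 1 library. Adh6-ps1 (ENSMUSG00000090306, chromosome 3, 138374121 to 138395002), a transcribed alcohol dehydrogenase pseudogene, had 2.99, 4.45, 5.11 and 2.93 CPM untreated and 0.359, 0.0358 and 0.315 CPM after CCl4. Its CCl4 effect was -4.18 log2 in knockout and -0.10 in wild type, a difference of -4.08 ± 0.59 (adjusted p = 0.0204), called in 12 of these fits; its knockout effect was -3.49 without CCl4 replicate 2 and -4.79 without replicate 1. Gsta1 differed by 4.48 ± 0.65 (6.52 against 2.04, adjusted p = 0.0204), also called in 12, with a knockout effect of 5.74 without CCl4 replicate 2. Cyp2c23, an epoxygenase of arachidonic acid, had 248 to 360.1 CPM untreated and 93.5, 68.2 and 67.9 CPM after CCl4. It fell by 2.06 ± 0.22 log2 in knockout and had -0.32 in wild type (difference -1.74 ± 0.27, adjusted p = 0.0278, called in 11).

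The other 7 of the 10 genes with the smallest p in this ranking had an adjusted p of 0.0316 each and kept the call in 6 to 9 of 17 fits. Ucp2, a mitochondrial carrier that macrophages carry at high level, had 0.856 to 1.93 CPM untreated and 25.4, 47.0 and 201 CPM after CCl4, and Adcy7, an adenylyl cyclase of myeloid cells, had 0 to 0.168 CPM and then 1.32, 3.58 and 30.9 CPM. Their knockout effects of 6.17 and 7.11 were both 4.84 without CCl4 replicate 3. Tagln2 differed by 3.40 ± 0.57. Kcnn2, a potassium channel, had 36.6 to 46.3 CPM and then 25.1, 15.1 and 12.6 CPM, with -1.27 in knockout and 0.21 in wild type. Xlr3a, Gm2788 and Nat8f1, an acetyltransferase, had differences of -4.81 ± 0.82, -3.14 ± 0.54 and -2.24 ± 0.39; the knockout effect of Xlr3a was -3.33, and -4.30 without CCl4 replicate 2.

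Of the 50 mitosis genes 11 had a called difference, of the 50 replication genes 6, of 22 male-biased genes 2 and of 58 plasma protein genes 1. The share of all genes was 1.09%. Without wild type untreated replicate 5 the difference was called for 16 of all genes, and the list counts were not made for that fit. Plk1 differed by 7.66 ± 1.73 log2 (7.42 in knockout, -0.24 in wild type, adjusted p = 0.0455), kept in 4 of 17 fits. Without wild type untreated replicate 5 it was 5.46 (adjusted p = 0.0678), and the knockout effect was 6.22 without CCl4 replicate 2. Mcm2 differed by 2.67 ± 0.52 (adjusted p = 0.0382) and by 2.60 without that library (adjusted p = 0.057). For the male-biased genes, Hsd3b5 differed by -4.33 ± 0.79 (-7.79 against -3.46, adjusted p = 0.0316), and by -4.29 without that library (adjusted p = 0.0559). Its knockout effect was -9.64 and -7.16 without CCl4 replicate 1 and 2. Mup7 had -5.40 log2 in knockout and -5.48 in wild type, with a difference of 0.08 (adjusted p = 0.987), and -8.29 in knockout without CCl4 replicate 1.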

How the data were processed

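RNA-seq libraries of FACS-sorted mouse hepatocytes were analysed from the table of raw read counts per gene that the authors deposited. Per the labels' protocols, Qiagen MicroRNEasy served for RNA and NEBNext Ultra II for the libraries. The submitters' processing notes name STAR 2.4.1d and mm10; no counting tool, annotation or strand setting is given in the sources used here, so reads of overlapping and antisense genes cannot be told apart. Symbols and positions were matched for 22914 of 23461 gene IDs (GENCODE M21), and every sample column was used.

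Counts of all 17 libraries were fitted together in edgeR 4.0.16 (R 4.3.3) with TMM scaling, filterByExpr (minimum count 10, total 15), a mean per group and robust quasi-likelihood F tests, with Benjamini-Hochberg adjustment over 13721 genes. The fitted contrasts were knockout CCl4 minus knockout untreated and its difference from wild type. Values for 1 replicate are log2(CPM + 0.1) minus the mean over the untreated libraries, and bounds use a floor of 3 counts. Intervals of count ratios cover counting error only. No pair of replicates agreed within sampling noise (lowest chi-square per gene 23.4). In data simulated for the knockout comparison with 200 changed genes among 13721, 21% of 2-fold and 59% of 4-fold changes were recovered and 3 unchanged genes were called. The simulation gave each gene the same mean and spread in all libraries, apart from changes made alike in the CCl4 libraries. It held few changed genes and no library apart like replicate 3, so these rates need not hold for the data.

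The members and gene lists (59 lists, with 1191 of 1204 entries in the table) were chosen with earlier results of these data known. Genes were examined singly if marked in a list or in a list of at most 10. So were the 15 largest rises and falls with a mean of at least 10 CPM that were called whichever CCl4 library was left out. So were the 10 smallest p values of the difference among genes with a mean of at least 10 CPM in any group. The text names those the results turn on. Ccdc80, Amotl1, Pttg1, Mybl2, Rbl2, Gtse1, Psrc1, Pmaip1, Prom1, Slc16a5, Pgd, Amdhd1 and Crp were chosen after their values were seen. Alternatives were RLE size factors, library totals alone, other filters, a replicate block, knockout samples alone, each library left out, each CCl4 replicate alone, DESeq2 1.42.0 and limma 3.58.1 (voom).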

Additional observations from a re-analysis of the deposited data

Results flagged for a closer look

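In 16 of 186 genes examined 1 of the 4 knockout untreated libraries lay apart from the other 3 by Dixon's criterion, which chance alone meets in about 1 of 20 groups. That rate does not hold for Myof, Pmaip1, Cyba, Cd83, Ly6d, Sult1e1 and Il1b. In these the other 3 libraries were at 0, so any read meets the criterion. Genes without an untreated count cannot meet it, so the 16 cannot be set against that rate. Untreated replicate 1 was the highest for Myof and Pmaip1 (0.0878 CPM each, the others at 0), Cyba and Cd83 (0.0439 CPM each, the others at 0) and Cyp2c55 (5.97 CPM), and the lowest for Golm1 (1.89 CPM, the others 3.59 to 3.96) and Slc10a1 (309 CPM). Replicate 2 was the highest for Ly6d (0.0856 CPM), Sult1e1 (0.342 CPM), Mup20 (14042 CPM), Gstp1 (4988 CPM), Hal (779 CPM) and Nat8f1 (269 CPM), and the lowest for Cd36 (0.0856 CPM) and Cps1 (3258 CPM). Replicate 4 was the highest for Il1b (0.0838 CPM). The Myof, Pmaip1, Cyba, Cd83, Ly6d and Il1b values rest on 1 or 2 reads.

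For 35 of these genes the CCl4 effect differed between knockout and wild type by edgeR's test of the difference, with adjusted p values of 0.0204 to 0.0492. Over all genes the difference was called for 150 of 13721 (1.09%), and 10 of the 35 were chosen for the smallest p of this difference. In log2, knockout minus wild type, the cell cycle genes had 7.66 (Plk1), 8.20 (Cdc20), 5.33 (Top2a), 6.79 (Aurkb), 2.67 (Mcm2), 2.86 (Mcm5) and 1.51 (E2f1). Without wild type untreated replicate 5, which held 757 CPM of summed mitosis genes, none of the 7 was called: Plk1 had 5.46, Cdc20 4.68, Top2a 4.41, Aurkb 5.14, Mcm2 2.60, Mcm5 2.4 and E2f1 1.47, with adjusted p of 0.057 to 0.0717. Surface and cytoskeletal genes had 6.08 (Ly6d), 4.02 (Anxa2) and 3.40 (Tagln2). Genes of hepatocyte metabolism and defence had 6.63 (Cyp2a4), 4.48 (Gsta1), 2.22 (Srxn1), 2.67 (Lpl) and 5.02 (Lcn2) on the higher side. On the lower side were Hsd3b5 (-4.33), Cyp2c23 (-1.74), Ugt2b1 (-1.44), Sult2a8 (-3.03), Amdhd1 (-1.35), Adh6-ps1 (-4.08), Kcnn2 (-1.49), Slc22a28 (-3.86), Xlr3a (-4.81), Gm2788 (-3.14) and Nat8f1 (-2.24).

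The rest were highest in knockout CCl4 replicate 3, the library with 3543 CPM of Kupffer markers: Lgals3 (9.90), Trem2 (6.51), Cd74 (5.71), H2-Aa (6.24), Il1b (11.02), Ucp2 (5.04), Adcy7 (6.84), Nlrp3 (12.46) and Cd83 (10.09). The part of macrophage RNA in these differences was not tested. Of the 17 fits that left out 1 library, the call was kept in 1 for Ugt2b1 and Sult2a8 and in at most 12, for Gsta1 and Adh6-ps1.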

How the results depend on the processing

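The 2610 genes called after CCl4 in the knockout came to 1273 when only knockout samples were fitted, to 162 and 1604 with CCl4 replicate 1 or 2 alone, and to 1691 without replicate 3 on the same genes, an alternative chosen after seeing the data, as were those on mitochondrial reads. Leaving out 1 library gave 1666 (without knockout CCl4 replicate 3) to 3079 (without CCl4 replicate 1). Size factors of the RLE type gave 2554, library totals alone 2166, no filter 2677, DESeq2 2905, limma voom 2030 and the fit without mitochondrially encoded genes 2669.

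The count for the difference between genotypes was less stable: 150 became 28 with library totals alone, 33 with no filter, 783 with DESeq2, 2 with limma voom, 9 without the libraries over 30% mitochondrial and 11 without replicate 3 on the same genes. It was 0 with CCl4 replicate 1 alone (edgeR; 714 genes with an unadjusted p under 0.05) and 1996 with replicate 3 alone, and 0 to 867 with 1 library left out. The cause was not tested. With a replicate block the counts were 2027 and 3, but the replicate numbers pair no samples: deviations of same-numbered samples correlated at -0.08 to 0.0001.

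Of 177 called genes examined singly, 127 kept the call in every alternative other than 1 CCl4 replicate alone, and none reversed there. Library totals alone ended 12 calls, knockout samples alone 34, limma voom 17 and leaving out replicate 3 21. DESeq2 ended none and gave no adjusted p for 10, which were not counted as lost. The reversals were Jchain with replicate 1 alone (-1.53) and 5 uncalled genes: Myc (-1.44) and Mybl2 (-0.050) with replicate 2 alone, Pecam1 (-0.16) with replicate 1 alone, and Stat5b (-0.93) and Alb (-0.082) with replicate 3 alone. With 1 library left out Stat5b ranged from -0.18 to 0.40 and Alb from -0.035 to 0.20. With 12649010 to 21543974 counts a library, values under 0.2 CPM rest on a few reads.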
